A study of Rattus norvegicus with 6 samples.

Results

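The data describe 38 contractile and actin cytoskeleton genes in cultured granulosa cells of the rat ovary, which line the follicle and nurse the oocyte. The genes were taken by symbol from a list of 39 names covering actins, actin-binding proteins, myosin II, tropomyosins, intermediate filaments and the SRF transcription system, among 17525 genes in the deposited table. The name Transgelin has no row of its own, since that protein is listed under its gene symbol Tagln. The list was not drawn from measured values by a threshold, but it was put together with earlier results of these data known.

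Per the series' design text, Sprague-Dawley (SD) rats aged 21 days were injected with 60 IU of PMSG, a gonadotropin from mare serum that drives follicle growth, and their ovaries were removed 48 h afterwards to prepare the cells. The analysed group is called ATR and has 3 libraries of poly(A) RNA, called ATR 1, ATR 2 and ATR 3. The series' title names long-term atrazine exposure, but the labels used here do not spell out ATR, and they give no dose, duration or route. The Control samples of the series, also 3 in number, are not analysed here, and the values therefore describe levels and not a response. Whether separate animals or cultures gave the libraries is not stated, so p-values measure only the spread between these samples, which may be technical. Where 3 values are given in a row, they belong to ATR 1, ATR 2 and ATR 3 in that order. The levels are those of cells in culture, and uncultured granulosa cells were not analysed here.

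Actin filaments are built from globular actin monomers, which thymosins and profilin hold in reserve and cofilin returns from old filaments. In contractile cells the filaments are wrapped by tropomyosin, linked by filamin and alpha-actinin, and pulled by myosin II, whose activity rises when myosin light chain kinase (Mylk) or RhoA-driven kinases phosphorylate its regulatory light chain. The serum response factor Srf binds a DNA motif called the CArG box near many of these genes, and its partner myocardin (Myocd) is known for the smooth muscle programme. Ovarian granulosa cells use the system for shape and adhesion, while smooth muscle-type contractile genes mark theca, vessel walls and myofibroblasts in the ovary.

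Most of the 38 genes were abundant transcripts, although 10 averaged under 100 TPM. Together they held 7.21%, 7.17% and 7.20% of all TPM, a level that the authors scaled for transcript length and library size. All 38 reached a mean of 1 TPM, 28 reached 100 TPM and 18 reached 1000 TPM. Of all 17525 genes, 71.4% reached 1 TPM, 10.7% reached 100 TPM and 0.879% reached 1000 TPM. The median member stood at 861 TPM, against 10.1 TPM for the median gene of the table. Of the 10 genes with the highest TPM, 5 were members, and of the first 100 genes 17 were. Ranked by CPM, which is scaled for library size but not for length, 13 of the first 100 genes were members.

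The libraries held 18677212 to 19170552 reads assigned to genes, of which 944964 to 986154 belonged to the 38 genes. The granulosa cell label was set beside 9 markers listed for these cells, whose specificity was not tested. Inha (inhibin alpha) averaged 443 TPM, Inhba 282 TPM, Gata4 189 TPM, Nr5a1 60.9 TPM and Foxl2 55.1 TPM. The FSH receptor Fshr averaged 5.80 TPM, and Amh and the aromatase gene Cyp19a1 lay below 1 TPM. Fst (follistatin) stood at 53.3, 84.6 and 59.7 TPM, and among the granulosa markers tested it alone varied more between the libraries than genes usually do (adjusted p = 0.0071, chi-square with edgeR's dispersion). The 9 markers summed to 1194, 1098 and 1010 TPM. The 8 markers of the ovarian surface epithelium summed to more, at 2250, 2090 and 2171 TPM. They were led by Upk3b at 1403 TPM, Krt8 at 405 TPM and Lrrn4 at 167 TPM, while Epcam, Muc16 and Krt19 lay below 1 TPM. The part of such cells in the members' levels was not tested. The authors' counts are estimates, and 16 of the 38 members have counts that are not whole numbers, which can arise when reads are divided between similar genes. No strand-marking step is described, so reads of a gene and of any antisense partner cannot be told apart.

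**Figure D1:**
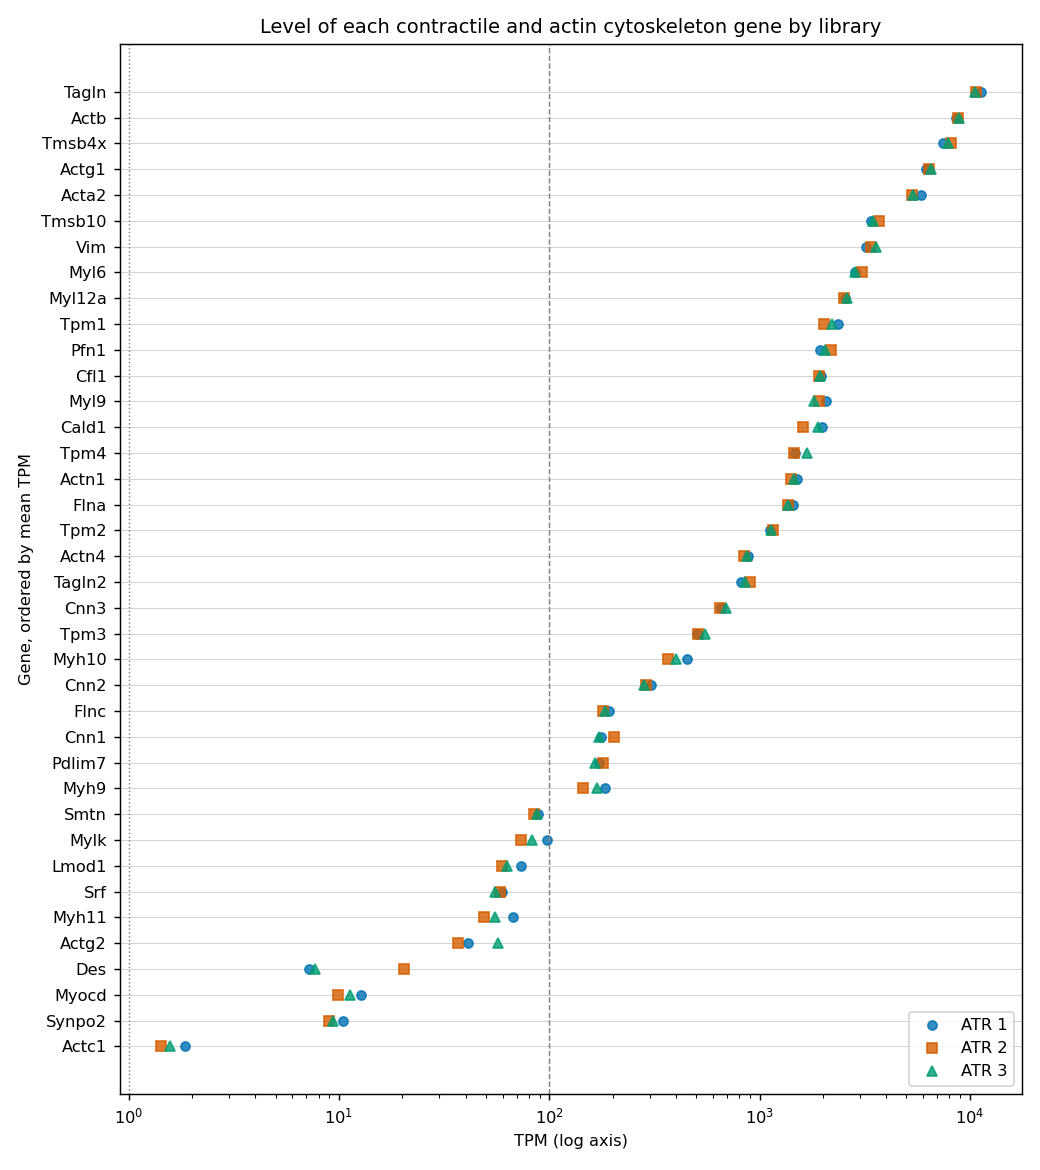
TPM of each of the 38 genes (log axis) in the 3 ATR libraries, with genes ordered by their mean. The dotted line marks 1 TPM and the dashed line 100 TPM. The libraries lie close together for nearly every gene, from Tagln near 10890 TPM to Actc1 at 1.62 TPM, with Des in ATR 2 the most displaced point.

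The cytoplasmic actins, the filament building blocks of every cell, were expressed at high and even levels. Actb (beta-actin) stood at 8584, 8773 and 8870 TPM. Actg1 (gamma-actin) stood at 6221, 6387 and 6518 TPM. Both genes were lowest in ATR 1 and highest in ATR 3 by a few percent, and the ratio of Actb to Actg1 was 1.38, 1.37 and 1.36. Their counts are not whole, so reads of these closely similar genes can be divided between them.

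Among the muscle actins, Acta2 was far above the others. Acta2, the smooth muscle alpha-actin that marks myofibroblasts, stood at 5853, 5282 and 5352 TPM. Actg2, the gamma-actin of visceral smooth muscle, stood at 40.9, 36.7 and 57.0 TPM. Actc1, the cardiac actin, stood at 1.86, 1.42 and 1.58 TPM, from 24.3, 18.7 and 21.2 estimated reads. The member muscle actins together made up 28.5%, 26.0% and 26.0% of the TPM of the 5 member actins, almost all of it Acta2. The skeletal actin gene Acta1, which is not a member, stood at 197, 155 and 177 TPM and so exceeded Actg2 in each library. The counts of these 4 muscle actins are not whole, and Acta2 had 29.7 to 34.1 times the TPM of Acta1. The levels of Actg2, Acta1 and Actc1, whose reads can be shared with that far more abundant gene, are uncertain.

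Tagln, whose product transgelin binds actin filaments in smooth muscle and in myofibroblasts, stood highest of all 17525 genes in mean TPM. Its level was 11357, 10751 and 10563 TPM, from 103306, 98327 and 98680 whole reads. The ratio of Tagln to Acta2 was 1.94, 2.04 and 1.97, and both genes were highest in ATR 1. Tagln2, the relative found in many non-muscle cells, stood at 818, 898 and 855 TPM, and Tagln exceeded it by a mean of 12.7 ± 1.01 times (SD, n = 3).

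The calponins are actin-binding relatives of transgelin. The widely expressed Cnn3 led them at 653, 648 and 692 TPM. Cnn2, also a non-muscle form, stood at 304, 287 and 284 TPM. Cnn1, the form that marks differentiated smooth muscle, stood at 176, 203 and 172 TPM and was the lowest of the 3 calponins in every library, with ATR 2 highest. Cnn3 exceeded Cnn1 by 3.19 to 4.03 times.

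Myosin II is a motor of paired heavy chains with essential and regulatory light chains. The essential light chain Myl6 stood at 2849, 3085 and 2853 TPM. The regulatory light chain of non-muscle cells, Myl12a, stood at 2554, 2522 and 2617 TPM, and its near copy Myl12b, which is not a member, averaged 547 TPM. Myl9, the regulatory light chain prominent in smooth muscle, stood at 2076, 1919 and 1826 TPM, with ATR 1 highest. The kinase that activates these chains, Mylk, was far lower at 97.5, 73.4 and 83.2 TPM, and Myl9 exceeded it by 21.3 to 26.1 times.

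The heavy chains were mostly of the non-muscle kind. Myh10 (non-muscle myosin IIB) stood at 453, 366 and 400 TPM. Myh11, the heavy chain of smooth muscle, stood at 67.5, 49.1 and 55.2 TPM, and Myh10 exceeded it by 6.72 to 7.45 times. The row named Myh9 (non-muscle myosin IIA) stood at 185, 144 and 169 TPM.

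The Myh9 row may hold only part of that gene's reads. Its identifier, 100911597, was not in the RefSeq gene table of assembly GRCr8, whereas the other 37 member identifiers were. That table gives the symbol Myh9 to identifier 25745, with Myh9l1 among its synonyms, and the deposited table lists 25745 under the name Myh9l1. The Myh9l1 row stood at 530, 564 and 575 TPM, that is 2.87, 3.91 and 3.40 times the Myh9 row. Both rows have counts that are not whole. The 2 rows moved in opposite directions: the ATR 2 to ATR 1 read ratio was 0.797 (exact 95% interval 0.776 to 0.819, counting error only) for Myh9 and 1.09 (1.07 to 1.10) for Myh9l1. For the summed reads it was 1.01 (0.998 to 1.02). The summed level was 715, 708 and 744 TPM, which places it above Myh10 by 1.58 to 1.94 times and above Myh11 by 10.6 to 14.4 times.

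**Figure D2:**
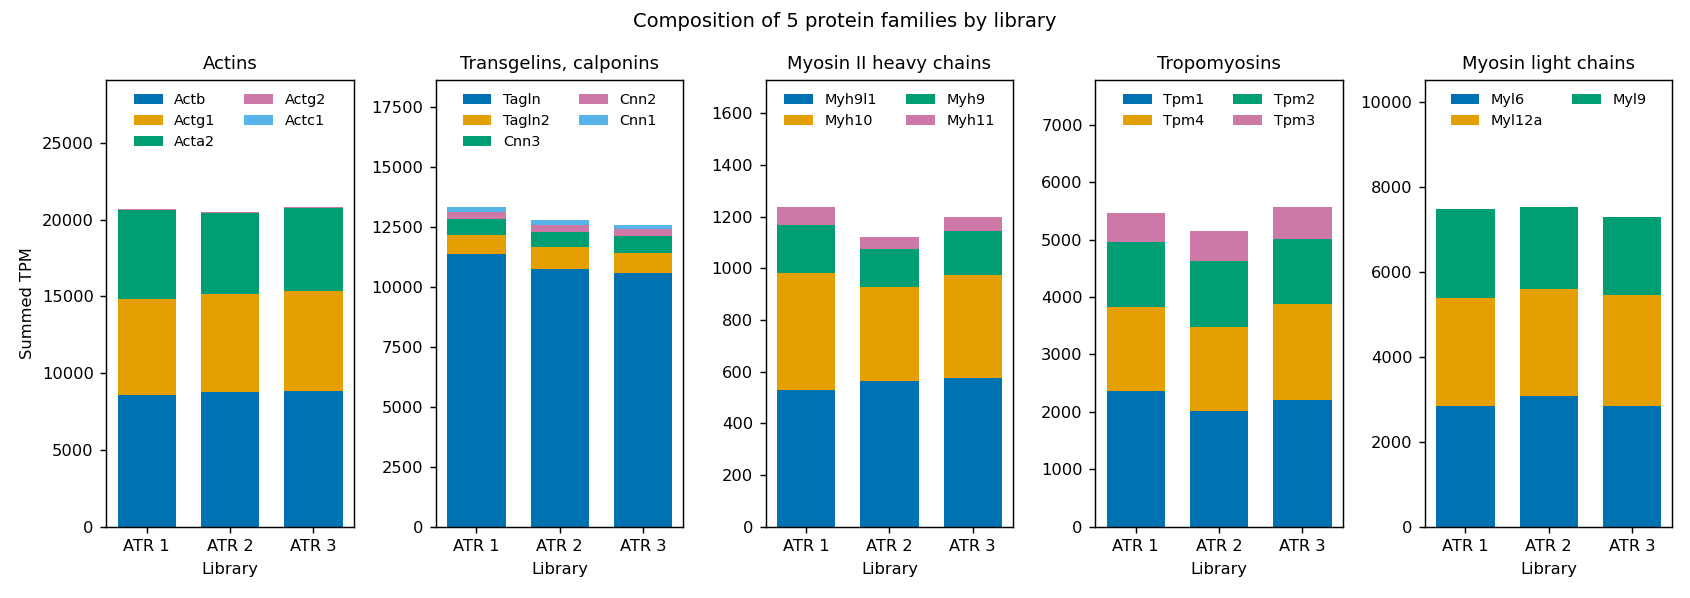
Summed TPM of 5 protein families in each ATR library, stacked by gene, with axes starting at 0 and differing between panels. Non-muscle forms make up most of the myosin heavy chains, whereas Acta2 and Tagln, which are smooth muscle forms, take large parts of their families. Myh9l1 is drawn beside Myh9 because RefSeq assigns its identifier to Myh9.

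Tropomyosins lie along the filament and set which proteins can bind it. Tpm1 led at 2356, 2016 and 2201 TPM and made up 43.1%, 39.2% and 39.6% of the 4 tropomyosin genes. Tpm4 stood at 1472, 1457 and 1682 TPM, with ATR 3 highest. Tpm2 stood at 1127, 1162 and 1129 TPM, and Tpm3 at 506, 512 and 548 TPM. Some tropomyosin genes make muscle and non-muscle isoforms from alternative exons, which values per gene do not separate.

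Caldesmon and leiomodin also act on the thin filament. Cald1 (caldesmon, which restrains myosin binding) stood at 1974, 1605 and 1892 TPM, with ATR 2 lowest. Lmod1, the smooth muscle leiomodin that nucleates actin, averaged 65.5 ± 7.20 TPM (SD, n = 3).

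Among the filament linkers, the widely expressed filamin exceeded the muscle form. Flna (filamin A, which ties filaments into networks) stood at 1437, 1366 and 1363 TPM, against 193, 180 and 184 TPM for Flnc (filamin C, the muscle form), a ratio of 7.41 to 7.60. Actn1 (alpha-actinin 1) stood at 1506, 1406 and 1463 TPM and Actn4 at 886, 844 and 867 TPM, a ratio of 1.67 to 1.70. Pdlim7, a PDZ and LIM domain protein of stress fibres, stood at 172, 180 and 165 TPM. Smtn (smoothelin, a marker of contractile smooth muscle) averaged 87.0 ± 1.98 TPM and Synpo2 (a muscle relative of synaptopodin) 9.58 ± 0.763 TPM (SD, n = 3).

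Among monomer-binding and severing proteins, the thymosins came closest to the actins in level. Tmsb4x (thymosin beta-4, which sequesters actin monomers) stood at 7470, 8136 and 7841 TPM, or 0.870 to 0.927 times Actb. Its relative Tmsb10 stood at 3381, 3717 and 3448 TPM. Pfn1 (profilin, which feeds monomers to growing ends) stood at 1939, 2177 and 2057 TPM. All 3 were lowest in ATR 1 and highest in ATR 2. Cfl1 (cofilin, which severs filaments) stood at 1966, 1922 and 1933 TPM, the smallest coefficient of variation of all members at 1.18%.

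The 2 intermediate filament genes were far apart. Vim (vimentin, of mesenchymal and cultured cells) stood at 3202, 3391 and 3592 TPM. Des (desmin, of muscle cells and pericytes) stood at 7.22, 20.4 and 7.69 TPM, from 139, 395 and 152 whole reads. ATR 2 stood apart for Des, and the ratio of Vim to Des was 443, 166 and 467.

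Srf averaged 57.7 ± 2.02 TPM and its muscle-restricted partner Myocd 11.3 ± 1.45 TPM (SD, n = 3), so that Srf exceeded Myocd by 4.66 to 5.92 times. Both transcripts were present in every library, with 2093 to 2175 reads for Srf and 588 to 760 estimated reads for Myocd.

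The 250 bases before the start of 31 members were read from RefSeq promoters of assembly GRCr8 and searched for the CArG box, which is CC, 6 bases of A or T, and GG, a pattern that is alike on both strands. Promoters of Actn4, Actb, Lmod1, Myh11, Myl9, Myocd and Tagln were missing from those at hand. Whether these genes hold the box was therefore not examined. The box was found in 3 of 31 members, namely Srf, Actg1 and Cnn2, and in 1.62% of 27457 genes searched in the same way. Srf, whose promoter holds the box in duplicate, is known to control its own gene. Boxes with 1 inner base changed to C or G were found in 3 members, Acta2, Actc1 and Tpm3, and in 7.39% of all genes. The stretches below are shown because they carry the motif of the factor that names the system. They are printed 5′ to 3′ on the gene's strand with the boxes in capitals, from Srf at chr9:21923970-21924049 (plus strand), Actg1 at chr10:106121007-106121066 (minus strand), Cnn2 at chr7:10370349-10370408 (minus strand) and Acta2 at chr1:241172553-241172662 (minus strand, boxes with 1 changed inner base).
Srf: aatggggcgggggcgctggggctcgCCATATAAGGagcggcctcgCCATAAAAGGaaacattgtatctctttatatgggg
Actg1: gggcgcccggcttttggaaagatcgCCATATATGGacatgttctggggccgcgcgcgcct
Cnn2: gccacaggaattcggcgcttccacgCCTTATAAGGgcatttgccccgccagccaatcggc
Acta2: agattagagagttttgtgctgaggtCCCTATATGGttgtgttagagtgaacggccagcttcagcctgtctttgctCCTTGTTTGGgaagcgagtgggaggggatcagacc

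The boxes begin 81 and 61 bases before the start of Srf, 90 before Actg1, 71 before Cnn2, and 134 and 84 before Acta2. The 4 genes differ widely in level, from Srf at 57.7 TPM to Actg1 at 6375 TPM. The motif CATTCC or its reverse complement GGAATG, which TEAD factors bind, was found in 9 of 31 members, namely Acta2, Cald1, Flna, Flnc, Myh10, Mylk, Pfn1, Tagln2 and Tpm1, and in 12.9% of all genes. A match shows only that these letters are present.

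Ordered by mean TPM, the 38 members form 37 neighbouring pairs. In 18 pairs the ranges over the 3 libraries overlapped, so their order is not settled by these data. The range of each of the first 5 genes, Tagln, Actb, Tmsb4x, Actg1 and Acta2, did not overlap that of the gene next below it. The run from Tpm1 down to Flna, which holds Pfn1, Cfl1, Myl9, Cald1, Tpm4 and Actn1, overlapped at every step.

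Levels varied little between libraries for most members, and about as little for genes in general. The median coefficient of variation of TPM was 4.87%, against 6.19% for the 12591 genes that averaged 1 CPM or more and 4.63% for the 7621 of them with at least 1000 reads in all. That coefficient lay under 10% in 73.7% of members, against 72.3% and 89.7% of the same 2 sets of genes. Members were thus no steadier than genes in general, and fewer of them lay under 10% than of genes with that many reads. The highest and lowest library differed by less than 1.2 times in 28 members, and by 1.5 times or more only in Actg2 and Des. A chi-square test of each gene's counts against the scaled library sizes found spread beyond counting noise in 30 of 38 members (adjusted p under 0.05), against 23.2% of all 13309 genes tested and 29.7% of those with at least 1000 reads. Of the members, 36 had that many reads. Counting noise is very small for such abundant genes, so differences of a few percent, such as that of Tagln, pass this test.

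A second test asked which members varied more than genes usually do between these libraries, with the variance that edgeR estimated over all genes (a biological coefficient of variation of 8.23%). It called Des and Actg2, that is 2 of 38 members, against 3.26% of all genes tested and 1.26% of those with at least 1000 reads. Of these 2 members, only Actg2 has that many reads. The largest of the other members in relative spread was Myh11, with a coefficient of variation of 16.3% (adjusted p = 0.732 in this test fitted with edgeR's dispersion).

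**Figure D3:**
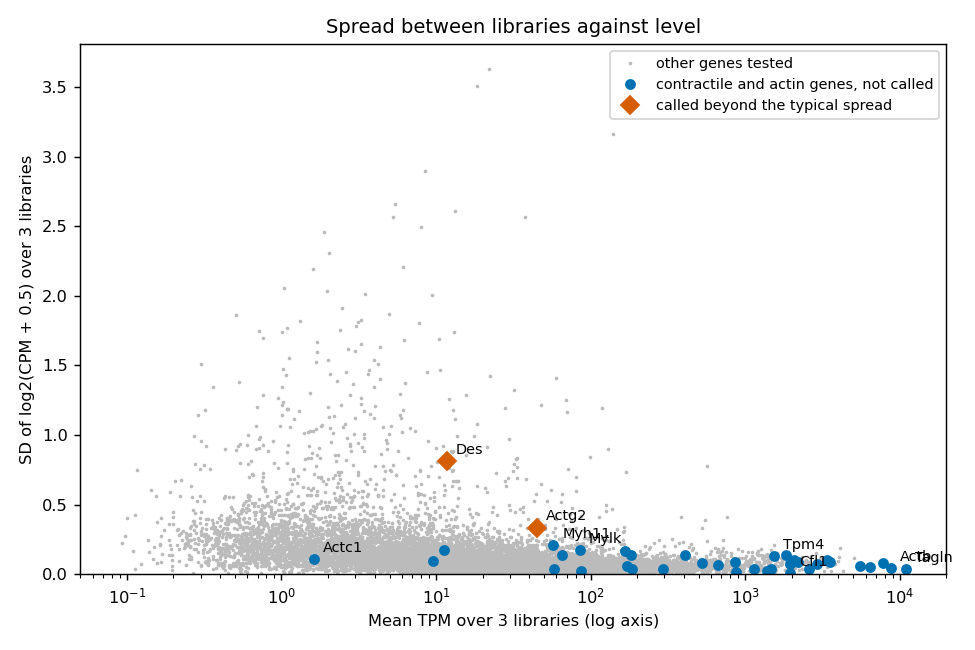
Standard deviation of log2(CPM + 0.5) over the 3 ATR libraries against mean TPM (log axis) for each gene tested. Grey points are other genes, blue points are members that did not pass the test against the typical spread, and orange diamonds are those that did. Des, at an SD of 0.81, and Actg2, at 0.33, stand above the other members.

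Des was higher in ATR 2 than in the other libraries pooled by a read ratio of 2.76 (exact 95% interval 2.36 to 3.22), with an adjusted p of 1.5e-14 from the chi-square test with edgeR's dispersion. Between ATR 3 and ATR 1 the ratio was 1.09 (0.864 to 1.39), and without ATR 2 Des no longer passed. Markers of other cell types that are not members differed in which library was highest. Of the 8 stromal fibroblast markers, Thy1, Prrx1 and Pdgfra were highest in ATR 2, Col14a1, Ogn, Postn and Dcn in ATR 1, and Lum in ATR 3. The pericyte and fibroblast receptor Pdgfrb stood at 9.40, 17.4 and 12.2 TPM. Thy1 stood at 23.2, 104 and 82.7 TPM, and Prrx1 at 12.0, 47.0 and 29.2 TPM. Postn went the other way at 109, 75.6 and 97.1 TPM. Pdgfrb, Thy1 and Prrx1, named here after their values were seen, were lowest in ATR 1, and their values in ATR 3 lay between those of the other libraries. The test against the typical spread, by chi-square with edgeR's dispersion, called Thy1 (adjusted p = 5.1e-19), Prrx1 (4.9e-15), Pdgfra (1.7e-11) and Pdgfrb (0.00028), but not Postn (0.32). Msln, a surface epithelium marker, stood at 35.3, 51.6 and 30.3 TPM and was called as well (0.0016), as was Fst. Both were highest in ATR 2.

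The sums over these lists rest mostly on a few abundant genes. The 8 stromal fibroblast markers summed to 722, 720 and 740 TPM, led by Col14a1 at 301 TPM. The 6 smooth muscle and pericyte markers that are not members summed to 248, 232 and 217 TPM, highest in ATR 1. They were led by Mcam at 204 ± 16.7 TPM (SD, n = 3), while Notch3 averaged 1.34 TPM, and Kcnj8 and Abcc9 lay below 1 TPM without being at 0. The part of these cell types in the Des difference was not tested. In bulk RNA, fewer cells of a type and less RNA per cell cannot be told apart.

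**Figure D4:**
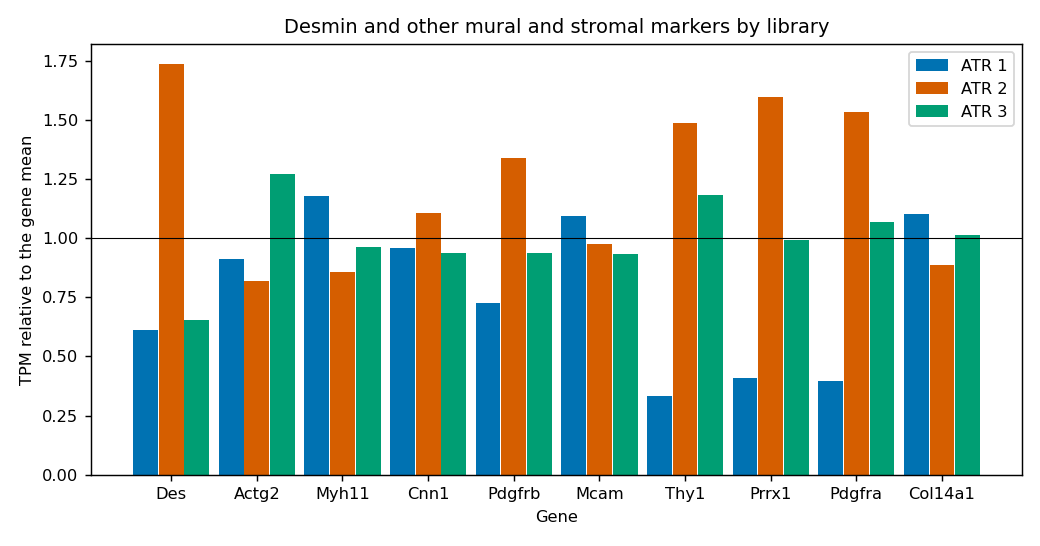
TPM of Des, Actg2 and 8 other mural and stromal markers in each ATR library, divided by the gene's mean over the libraries, with bars starting at 0. Des is high in ATR 2 alone, Thy1, Prrx1 and Pdgfra are low in ATR 1, and Actg2 is highest in ATR 3.

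Actg2 was higher in ATR 3 than in the other libraries pooled by a read ratio of 1.49 (exact 95% interval 1.34 to 1.66), with an adjusted p of 0.032 from the same test. The call was not kept with a dispersion that depends on expression (adjusted p = 0.086, trended dispersion of edgeR), nor without ATR 2 (0.27) or without ATR 3. Acta2, its close relative, was highest in ATR 1 and not in ATR 3.

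Smaller differences between ATR 1 and ATR 2 ran in both directions. Of the 38 members, 15 were highest in ATR 1 and lowest in ATR 2, against 18.0% of the 12591 genes that averaged 1 CPM or more. They were Acta2, Actc1, Tpm1, Cald1, Lmod1, Actn1, Actn4, Flna, Flnc, Myh9, Myh10, Myh11, Mylk, Myocd and Synpo2, a mixture of muscle and non-muscle forms. The reverse order, lowest in ATR 1 and highest in ATR 2, was found in 9 members, against 18.8% of those genes. They were Tmsb4x, Tmsb10, Pfn1, Myl6, Tpm2, Tagln2, Cnn1, Pdlim7 and Des. Of the members with either order, Actn4, Synpo2, Actc1 and Pdlim7 did not pass the test against counting noise. The Myh9 row may hold only part of its gene's reads, and Myh9l1 had neither order. The ATR 2 to ATR 1 read ratio was 0.750 (exact 95% interval 0.715 to 0.787) for Myh11, 0.785 (0.749 to 0.823) for Mylk, 0.839 (0.829 to 0.849) for Cald1 and 0.922 (0.913 to 0.932) for Acta2. Tagln and Myl9 were also highest in ATR 1 but lowest in ATR 3. Of all these genes, only Des passed the test against the typical spread. Of the 8 members on the list of smooth muscle and pericyte markers, Lmod1, Myh11, Myocd and Synpo2 had the first order, Cnn1 and Des the reverse, and Actg2 and Smtn neither.

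Some markers of other cell types had the first order too. Counting those that are not members and averaged 1 TPM or more, it was found in 3 of 3 striated muscle markers (Acta1, Tnnt2 and Actn2), in 2 of 5 surface epithelium markers (Upk3b and Lrrn4), in 2 of 8 stromal fibroblast markers (Col14a1 and Postn) and in 1 of 7 granulosa markers (Gata4). It was found in 0 of 4 smooth muscle and pericyte markers. Of the 12591 genes that averaged 1 CPM or more, 18.0% had this order. Tnnt2 and Actn2 did not vary beyond counting noise (adjusted p = 0.43 and 0.49, chi-square test), and reads of Acta1 can be shared with Acta2. Upk3b stood at 1513, 1316 and 1379 TPM and Lrrn4 at 189, 149 and 164 TPM. Of the same 7 granulosa markers, Inha, Foxl2 and Fshr were highest in ATR 1 and lowest in ATR 3. Inhba and Nr5a1 were highest in ATR 2 and lowest in ATR 3, and Fst was highest in ATR 2 and lowest in ATR 1. Of these 7 markers, only Fst passed the test against the typical spread. The part of these cell types in the members' order was not tested.

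Transcript length moved with the order of the libraries. Reads per TPM, the quotient of the deposited values, follows the transcript length used by the authors. The genes were split into 5 equal classes by this measure. The class of longest transcripts held 8 members, Myh9, Myh10, Myh11, Mylk, Myocd, Synpo2, Flna and Flnc. Each of these rows was highest in ATR 1 and lowest in ATR 2. Of all genes in that class, 28.6% showed this order, and 31.3% of those with at least 1000 reads did. The order is not settled for some of these members. Myh9l1, at 65.7 reads per TPM, was highest in ATR 3 and lowest in ATR 1. Summed with Myh9, its ATR 2 to ATR 1 read ratio was 1.01. Synpo2 did not vary beyond counting noise (adjusted p = 0.38, chi-square test). For Flna the ATR 2 to ATR 3 read ratio was 0.996 (exact interval 0.988 to 1.005). These 8 members deviated from their own mean by a median of 0.14 (log2) in ATR 1 and -0.16 in ATR 2, against 0.03 and -0.02 for all genes of that class. The 15 members in the class of shortest transcripts had medians of -0.05 and -0.01, against -0.03 and 0.02 for all genes of that class. Spearman's rho between reads per TPM and the log2 deviation, across the 38 members, was 0.57 for ATR 1, -0.54 for ATR 2 and 0.02 for ATR 3. Across 12243 genes it was 0.19, -0.15 and -0.06. These are descriptions over genes that share libraries and are not independent. The part of transcript length in the members' order was not tested.

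**Figure D5:**
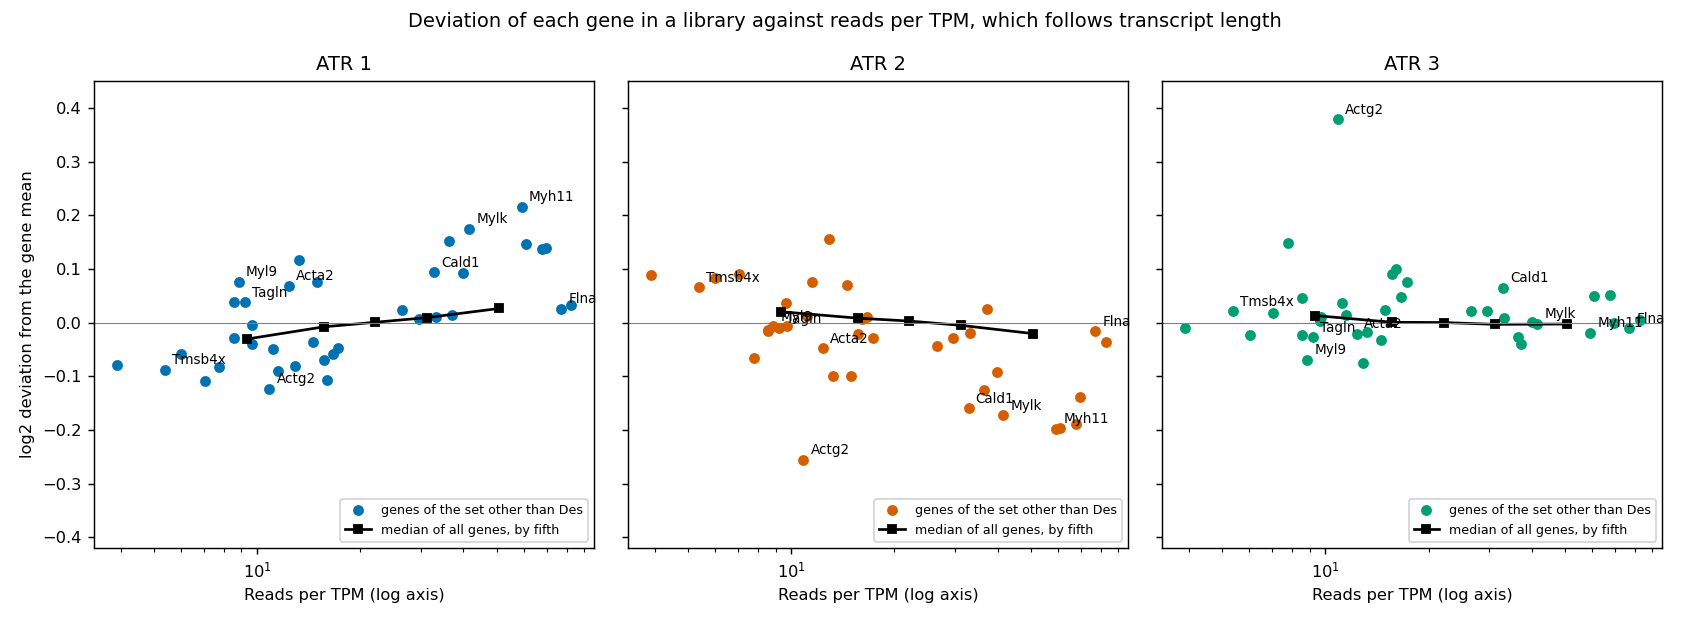
Deviation of log2(CPM + 0.5) from the gene's mean in each ATR library against reads per TPM (log axis). Coloured points are the members other than Des, and black squares join the medians of all genes in 5 equal classes of reads per TPM. The 8 members in the class of longest transcripts lie above 0 in ATR 1 and below it in ATR 2. All of them but Flna lie further from 0 there than the median of all genes in that class. The Myh9 row among them may hold only part of its gene's reads.

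Other genes of the actin and myosin pathway, in 6 lists that hold 107 genes outside the set, were lower than the set but well expressed. The median of these genes was 88.6 TPM, with 101 at 1 TPM or more and 51 at 100 TPM or more. Pfn2 and Hic1 were called against the typical spread, that is 2 of the 102 tested, beside 3.26% of all genes.

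Regulation of RhoA and the myosin light chain was led by the switch protein Rhoa at 1564 ± 34.0, its relative Rhob at 610 ± 29.1 and the light chain Myl12b at 547 ± 11.1 TPM (SD, n = 3). The RhoA-driven kinases Rock1 and Rock2 averaged 62.6 and 56.8 TPM, below Mylk. Actin nucleation was led by Arp2/3 complex genes, Arpc2 at 798 ± 13.7, Arpc1b at 415 ± 15.9 and Actr3 at 409 ± 5.45 TPM. Turnover and capping genes were led by Dstn (destrin, a relative of cofilin) at 1443 ± 71.9, the capping protein Capzb at 456 ± 4.58 and the cyclase-associated Cap1 at 406 ± 9.34 TPM.

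Stress fibre linkers were led by Pdlim1 at 838 ± 24.2, the focal adhesion protein Zyx at 469 ± 13.3 and Fhl1 at 408 ± 41.2 TPM (SD, n = 3). Among partners of Srf and related transcription factors, Yap1 averaged 216 ± 13.1, its DNA-binding partner Tead1 117 ± 7.33 and its relative Wwtr1 111 ± 6.06 TPM. The actin-sensing cofactors of Srf, Mkl1 and Mkl2, averaged 35.5 and 11.0 TPM, and Mkl2 was thus level with Myocd. Other intermediate filament genes were led by Krt8 at 405 ± 28.0, Lmna at 383 ± 8.49 and Krt18 at 156 ± 16.0 TPM. Pfn2, a profilin best known from brain, was listed at 5.24, 5.22 and 0 TPM, from 96.8, 96.8 and 0 estimated reads. Its counts are not whole, which can arise when reads are divided between similar genes, so its spread is uncertain. Hic1, a transcriptional repressor of mesenchymal cells, averaged 1.28 ± 0.772 TPM (SD, n = 3) and was highest in ATR 2.

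Striated muscle markers were mostly near 0. Of 10 measured genes, Acta1, the troponin Tnnt2 at 6.89 ± 1.11 TPM and the sarcomeric actinin Actn2 at 2.70 ± 0.375 TPM (SD, n = 3) reached 1 TPM. Myh6, Myh7, Ttn, Actn3, Myl2, Tnni3 and Tnnt3 did not.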

How the data were processed

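Poly(A) RNA was sequenced as pairs of 150 bases, per the labels' protocols. The authors deposited a TPM value and an estimated count of reads for each gene and library, per the file headers. Per the submitters' processing notes, the tools were HISAT2 2.2.1, StringTie 2.1.5 and fastp 0.20.1 and the builds Rnor_6.0 and GRCm38, with no roles given. The members and gene lists were chosen with earlier results of these data known. Every member is named, with the 3 most abundant genes of each pathway list and any called there. Other genes outside the set were named for their role or marker use after their values were seen. Estimated counts were rounded and scaled by TMM (edgeR 4.0.16, R 4.3.3). Counts were tested by chi-square with 2 degrees of freedom in genes with at least 30 reads, against counting noise or against a variance with edgeR's common dispersion, with Benjamini-Hochberg adjustment over all genes and a threshold of 0.05. Without molecular identifiers, duplicated reads count as independent. On simulated counts of the 3 ATR libraries with typical spread, the second test found 34% of the genes changed 1.5-fold in ATR 2 and 99% of those changed 2-fold (100 genes each), with 2 false calls among 13309 genes. The test there used a dispersion estimated from the simulated counts, 0.0090, above the 0.0068 they were drawn with, which makes calls fewer. Every simulated gene had the same dispersion, as the test assumes, so the false calls do not cover genes whose dispersion differs. The changed genes were drawn from those with reads well above the test's lower limit, so the recovery does not cover genes near it. Computations used Python 3.11.15, pandas 2.3.3, scipy 1.17.1 and matplotlib 3.10.9.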

Additional observations from a re-analysis of the deposited data

How the results depend on the processing

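No paired analysis was possible because only ATR libraries were analysed, and the comparison with Control was not run. Members beyond counting noise numbered 30, or 17 of 22 with whole counts alone, where fewer members were tested. Members beyond the typical spread numbered 2. They numbered 1 with whole counts alone, where Actg2 was not tested, and 1 with a trended dispersion. With 1 library left out they numbered 0 to 2. The 0, by chi-square with edgeR's dispersion, came without ATR 2, where 1 member had an unadjusted p under 0.05 and the test against counting noise called 23. The members' share was 7.19% of TPM and 5.11% of reads, TPM being scaled for length. Members lowest in ATR 3 numbered 4, and 7 with TPM or with library totals. Counts at 1 and 100 TPM and the other tallies by library stayed within 1.5 times. Actc1, with about 20 reads a library, is limited by depth.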
